A study of Homo sapiens with 54 samples.

Results

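Long noncoding RNAs were followed through carboplatin treatment in high-grade serous ovarian cancer cells, and the 7 described here were the table rows with the symbols MALAT1, NEAT1, KCNQ1OT1, TUG1, GAS5, UCA1 and H19, out of 25435 genes. They were chosen by symbol with their TPM in treated and untreated cells already known, so those levels are given as a description and carry no test. The study used 6 established ovarian cancer cell lines that form 3 pairs, each pair from 1 patient, with a platinum-resistant and a platinum-sensitive line: PEA2 with PEA1, PEO4 with PEO1, and PEO23 with PEO14. Cultures of each line were left untreated or exposed to carboplatin at 80 µM for 8 h or 24 h, a drug whose platinum binds and crosslinks DNA, with 3 replicates per group and 54 libraries of total RNA. The series text describes the control as vehicle-treated and harvested at 24 h, and the labels call it untreated and give no time. By the series text the 8 h cultures differ from their control in time of harvest as well as in drug. At 8 h these cannot be told apart. Each line is 1 culture line per patient and stage, so a difference between the lines of a pair cannot be told apart from any other difference between those cultures. In the PEA pair it also cannot be told apart from time in culture, since PEA1 was at passages 101 to 106 and PEA2 at 23 to 27. Untreated and treated cultures of a line and replicate number had overlapping passages in only 1 of 18 cases. A difference between treated and untreated cells therefore cannot be told apart from a difference in passage.

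MALAT1 and NEAT1 are made from neighbouring genes as long transcripts that stay in the nucleus. MALAT1 gathers in nuclear speckles, which store splicing factors, and NEAT1 is the scaffold of paraspeckles. KCNQ1OT1 is a very long unspliced nuclear RNA from the paternal copy of an imprinted region and runs antisense to the potassium channel gene KCNQ1. TUG1 is found in nucleus and cytoplasm. GAS5 is a spliced host gene whose introns carry small nucleolar RNAs (snoRNAs) and whose spliced RNA is exported and destroyed in step with translation. UCA1 and H19 are mostly cytoplasmic, and H19 comes from the maternal copy of the imprinted region and is the precursor of a microRNA. In bulk RNA, fewer cells with a transcript and less of it per cell cannot be told apart.

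Sequences of 3 of these RNAs show an element at the ends of MALAT1 and NEAT1, which was not found in KCNQ1OT1, and the start of a GAS5 transcript. The ends of MALAT1 and NEAT1 hold a pair of U-rich stretches and an A-rich tract that fold into a triple helix, which protects tails that lack the usual polyadenylation, and both are shown from the GENCODE v29 transcripts in build GRCh38, read along the transcript with T for U. The MALAT1 stretch is chr11:65506024-65506121 on the plus strand, 98 bases of the last exon of transcript MALAT1-202. The NEAT1 stretch is chr11:65445448-65445540 on the plus strand and ends the long transcript NEAT1-202. The longest stretch that the last 500 bases of both RNAs share is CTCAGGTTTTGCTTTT, 16 bases. Capitals mark TTTCTTTT, TTTTGCTTTT (the end of that stretch) and GCAAAA in both.
MALAT1: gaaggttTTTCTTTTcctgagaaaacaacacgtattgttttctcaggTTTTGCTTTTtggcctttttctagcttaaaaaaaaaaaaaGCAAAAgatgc
NEAT1: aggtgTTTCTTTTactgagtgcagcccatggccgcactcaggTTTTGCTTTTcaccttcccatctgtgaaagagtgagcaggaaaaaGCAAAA
GAS5 starts instead with C and a run of pyrimidines, the start typical of ribosomal protein mRNAs, here the first 40 bases of transcript GAS5-219, chr1:173867950-173867989 on the minus strand, with that start in capitals.
GAS5: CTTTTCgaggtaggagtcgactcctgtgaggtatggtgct

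The motif TTTTGCTTTT, searched on the transcribed strand, stood in the last 500 bases of the longest transcript in 44 of 11113 long noncoding RNA genes of at least 500 bases, 0.396%. It was followed within 60 bases by GCAAAA in 4 genes, 0.0360%, and MALAT1 and NEAT1 were among them while none of the other 5 RNAs was. The motif was taken from MALAT1 and NEAT1, so their match was fixed in advance. A start of C and 4 pyrimidines was present in at least 1 transcript of 616 of 14972 long noncoding RNA genes (4.11%), of 2902 of 19902 protein-coding genes (14.6%), of 12 of 21 snoRNA host genes (57.1%) and of 68 of 88 ribosomal protein genes (77.3%). Among the 7 RNAs it was found in 6 of 29 transcripts of GAS5 and in 1 of 36 of UCA1, and in none of the others. These matches describe the annotated sequences and say nothing of which transcript the libraries held. MALAT1, NEAT1 and KCNQ1OT1 each have a longest transcript of 1 exon, of 8708, 22743 and 91667 bases. The longest transcripts of TUG1, GAS5, UCA1 and H19 have 3, 8, 3 and 5 exons and 7469, 1698, 2687 and 2348 bases.

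Values are TPM, a share of all RNA corrected for transcript length, rescaled between libraries by a median ratio. Changes are differences of log2(rescaled TPM + 1), and the added 1 shrinks those of weakly expressed RNAs. TPM keeps no read depth, so the depth is unknown. Of the 54 libraries 12 listed fewer than 12000 genes above 0 and were set aside, including all 3 untreated PEO23 libraries and 2 of 3 from untreated PEA1, and the 42 retained libraries listed 12877 to 17133 genes. All 42 retained libraries correlated best with their own line across 1000 genes that differ between lines. Those genes were chosen on the same 42 libraries, which favours this match. Of the libraries set aside, 2 correlated best with another line, those labelled PEA1 untreated replicate 3 and PEO23 untreated replicate 3. Only 1 library each remained of untreated PEA1, of 24 h PEO4 and of 24 h PEO14, and these lone libraries were taken to vary as other groups do. PEA2, PEO1 and PEO4 kept 2 libraries at 8 h. Of 9 markers of Müllerian and serous ovarian epithelium, all had a median of at least 1 rescaled TPM, but EPCAM was at only 2.05 to 6.70 in PEA1, SOX17 was listed at 0 in every retained PEA1 and PEO1 library, and MUC16 did not pass 0.0354 in PEA1. The cytosolic ribosomal protein mRNAs took 14.9% to 25.2% of TPM in carboplatin libraries and 7.72% to 14.7% in untreated ones, and the small nuclear and nucleolar RNAs RMRP and RPPH1 together took 7.91% to 45.6% in carboplatin libraries and 7.14% to 19.5% in untreated ones. The part of these shifts in the changes below was not tested.

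**Figure D1:**
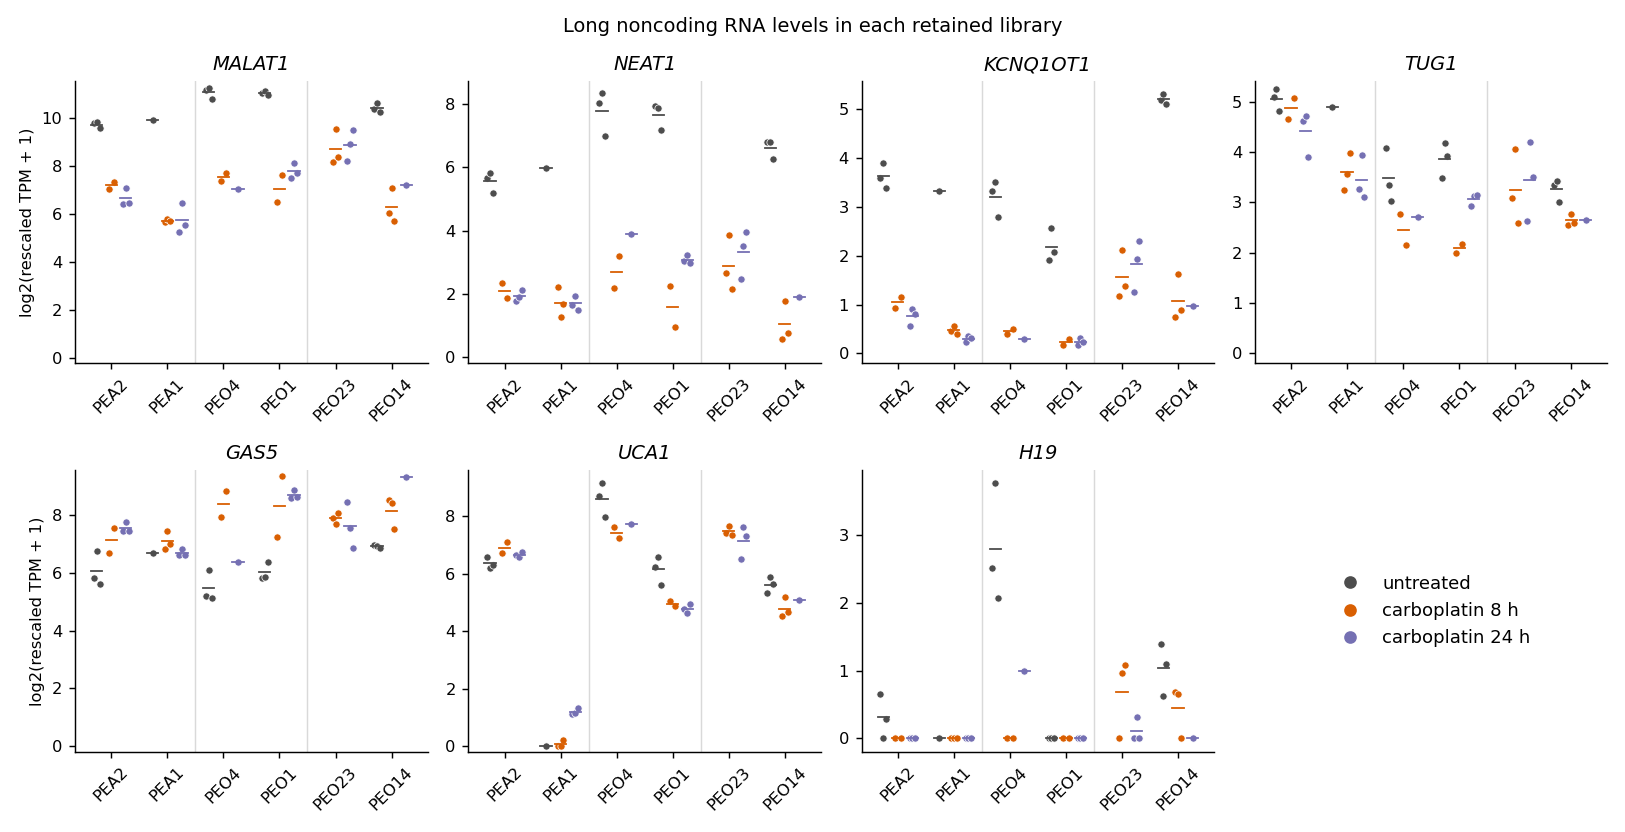
Level of each of the 7 long noncoding RNAs in every retained library, as log2(rescaled TPM + 1) on the vertical axis, by line along the horizontal axis, with resistant lines left of their sensitive partners; points are libraries, bars are group means and colours are times. MALAT1, NEAT1 and KCNQ1OT1 lie below all untreated points of their line at both times, GAS5 mostly above them, and UCA1 is near 0 in PEA1 alone.

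MALAT1 was among the most abundant RNAs of untreated cells and was lower under carboplatin in each line that could be compared. In PEA2 it had 873, 894 and 753 rescaled TPM untreated, 129 and 162 at 8 h and 84.5, 133 and 86.9 at 24 h. In PEA1 it had 948 in the 1 untreated library, 49.6, 53.5 and 50.6 at 8 h and 36.9, 86.3 and 45.2 at 24 h. No treated library of either line reached its untreated level. In PEO4 the values were 2296, 2383 and 1749 untreated, 162 and 209.7 at 8 h and 129 in the 1 library at 24 h. In PEO1 they were 2062, 2218 and 1945 untreated, 88.1 and 193 at 8 h and 180.0, 275 and 207 at 24 h. Again the treated and untreated ranges did not overlap. PEO14 had 1302, 1542 and 1205 untreated, 64.5, 136 and 51.5 at 8 h and 148 at 24 h. PEO23, which has no retained untreated library, had 286, 747 and 326 at 8 h and 293, 483 and 724 at 24 h, the highest treated levels of any line. Its untreated libraries that were set aside listed MALAT1 at 11136, 5044.5 and 49.89 deposited TPM. The retained untreated libraries of the other lines listed 1175.8 to 3294.6.

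As a share of the untreated mean, MALAT1 stood at 5.41% (PEA1) to 17.3% (PEA2) after 8 h and at 5.92% (PEA1) to 12.1% (PEA2) after 24 h. The log2 change at 8 h ranged between -2.53 ± 0.41 (SE) in PEA2 and -4.18 ± 0.52 in PEA1, with a median of -3.98 over the 5 lines and of -3.25 at 24 h. Its rank among all genes of a library was 21 to 107 in the 13 untreated libraries, 181 to 2174 at 8 h and 208 to 2868 at 24 h. Measured on the deposited values, MALAT1 made up 0.118% to 0.329% of TPM untreated, 0.00505% to 0.0667% at 8 h and 0.00428% to 0.0580% at 24 h. Untreated MALAT1 was ordered PEO4 (2143 ± 343), PEO1 (2075 ± 137), PEO14 (1349.6 ± 173), PEA1 (948, 1 library) and PEA2 (839.9 ± 76.2; mean ± SD, n = 3). PEO4 and PEO1 overlapped, and PEO14 lay below both and above the PEA lines.

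NEAT1 had the lowest median change of the 7 on the log2(rescaled TPM + 1) scale. In PEA2 it had 49.9, 55.8 and 35.5 rescaled TPM untreated, 4.04 and 2.64 at 8 h and 2.40, 2.72 and 3.38 at 24 h. In PEA1 it had 62.2 untreated, 3.64, 1.42 and 2.17 at 8 h and 2.13, 2.83 and 1.81 at 24 h. The PEA lines were thus alike in having a few TPM of this scaffold RNA left. In PEO4 it had 261, 324 and 128 untreated, 3.52 and 8.15 at 8 h and 13.8 at 24 h. In PEO1 it had 247, 232 and 145 untreated, 3.73 and 0.920 at 8 h and 7.12, 8.38 and 6.93 at 24 h. Among the retained untreated libraries, those of PEO4 and PEO1 were all above every other. This leaves out the untreated PEO23 libraries, which were set aside. PEO14 had 112, 111 and 75.6 untreated, 0.489, 2.43 and 0.681 at 8 h and 2.76 at 24 h. PEO23 had 5.26, 13.5 and 3.43 at 8 h and 4.53, 10.5 and 14.5 at 24 h. The log2 change at 8 h ranged between -3.46 ± 0.48 in PEA2 and -6.08 ± 0.48 in PEO1, with medians of -5.11 at 8 h and -4.29 at 24 h, and NEAT1 stood at 1.12% to 7.10% of the untreated mean at 8 h and at 2.78% to 6.02% at 24 h.

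KCNQ1OT1, the imprinted antisense RNA, was less abundant, and its treated levels were also a small share of its untreated ones. Among the retained untreated libraries those of PEO14 had the most, 35.6, 38.9 and 33.5 rescaled TPM, and had 0.669, 2.09 and 0.842 at 8 h and 0.950 at 24 h. PEA2 had 10.97, 14.0 and 9.48 untreated, 0.913 and 1.23 at 8 h and 0.468, 0.870 and 0.761 at 24 h. The 3 untreated PEO23 libraries that were set aside listed KCNQ1OT1 at 129, 148 and 4.69 deposited TPM, and those of PEO14 at 51.9, 58.8 and 52.3. PEO1 was lowest, with 2.78, 4.93 and 3.21 untreated, 0.124 and 0.230 at 8 h and 0.134, 0.244 and 0.169 at 24 h. Over the retained libraries the treated ones, of 6 lines, ran between 0.124 and 3.93 and the untreated ones, of 5 lines, between 2.78 and 38.9, and within each of the 5 lines with both they did not overlap. Its level stood at 3.33% to 9.35% of the untreated mean at 8 h and 2.56% to 6.09% at 24 h. With so few TPM left the log2 change, at medians of -2.75 at 8 h and -2.92 at 24 h, is held back by the added 1. With an added 0.1 they were -4.15 and -4.70, and as a share of untreated KCNQ1OT1 stood lower than NEAT1 at 24 h in PEA1 (2.56% and 3.63%), PEO4 (2.60% and 5.82%) and PEO14 (2.64% and 2.78%). Whether the authors' counting used strand is not given in the sources used here, and reads of KCNQ1OT1 and of the overlapping KCNQ1 introns cannot be told apart.

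TUG1, which is found in both compartments, was lower by less. Its 8 h level was 87.9% of the untreated mean in PEA2, where the ranges overlapped, 60.8% in PEO14, 43.0% in PEO4, 39.4% in PEA1 and 23.6% in PEO1. At 24 h it stood at 35.2% to 64.7% and lay below every untreated library in all 5 lines. In PEO1, for example, TUG1 had 10.1, 17.1 and 14.1 rescaled TPM untreated, 2.98 and 3.53 at 8 h and 6.59, 7.75 and 7.83 at 24 h. The median log2 change over lines was -1.03 at 8 h and -0.77 at 24 h.

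GAS5, the snoRNA host, went the other way in most lines. PEO4 had 35.7, 68.2 and 34.2 rescaled TPM untreated, 246 and 464 at 8 h and 83.2 in the 1 library at 24 h. PEO1 had 56.5, 57.4 and 82.8 untreated, 152 and 662 at 8 h and 388, 472 and 403 at 24 h. PEO14 had 125, 123 and 117 untreated, 368, 343 and 186 at 8 h and 646 in the 1 library at 24 h. In these 3 lines every retained treated library was above every untreated one, although the 8 h libraries of PEO1 differed from each other by over 4-fold. PEA2 had 55.8, 109 and 48.9 untreated, 104 and 187 at 8 h and 175, 219 and 174 at 24 h. PEA1 had 104 untreated, 115, 175 and 127 at 8 h and 97.9, 113 and 98.2 at 24 h. The ranges overlapped in PEA2 at 8 h and in PEA1 at 24 h. Of the treated libraries set aside, those of PEO4 listed GAS5 at 17.9 deposited TPM at 8 h and at 14.3 and 0 at 24 h, and 1 of PEO14 listed it at 0 at 24 h. The 24 h change turned with all 54 libraries, to -1.74 in PEO4 and -0.20 in PEO14. That fit was rescaled over 392 genes, against 8287 for the retained libraries. The 8 h mean was 134% (PEA1) to 771% (PEO4) of the untreated mean, and the 24 h mean 99.3% (PEA1) to 642% (PEO1). Median log2 changes over the lines were 1.23 at 8 h and 1.48 at 24 h. Without rescaling the 8 h median was 0.64, so part of the height of GAS5 depends on that step, while its rank in a library, 650 to 3645 untreated, 305 to 1031 at 8 h and 246 to 1492 at 24 h, does not use it.

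UCA1, a cytoplasmic RNA, stood at very different levels in the lines, and its treated levels lay above the untreated ones in some lines and below them in others. Its levels in PEA2 were 94.0, 72.4 and 77.6 rescaled TPM untreated, 103 and 135 at 8 h and 97.9, 95.4 and 105 at 24 h. In PEA1 it was listed at 0 untreated, at 0, 0 and 0.175 at 8 h and at 1.16, 1.24 and 1.50 at 24 h. The library labelled PEA1 untreated replicate 3, which was set aside and correlated best with PEA2, listed UCA1 at 106.5 deposited TPM. PEO4 had 413, 567 and 250.0 untreated, 193 and 149 at 8 h and 210.3 at 24 h. PEO1 had 74.1, 94.9 and 47.8 untreated, 31.7 and 28.3 at 8 h and 25.9, 23.6 and 29.9 at 24 h. PEO4 was thus above PEO1 at each time, and in both lines the treated libraries were below the untreated ones. PEO23 had 169, 201 and 159.8 at 8 h and 89.5, 194 and 156 at 24 h. PEO14 had 38.6, 57.9 and 49.1 untreated, 21.9, 35.1 and 24.1 at 8 h and 33.0 at 24 h. UCA1 stood at 41.7%, 41.5% and 55.7% of the untreated mean in PEO4, PEO1 and PEO14 at 8 h, but at 146% in PEA2. The PEA2 difference depends on the rescaling, since its deposited TPM of 136 and 163 at 8 h overlapped 160.1, 125 and 121 untreated. The PEA1 changes turned with all 54 libraries, to -2.31 at 8 h and -1.22 at 24 h.

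H19 was scarce. It was listed at 0 in every retained PEA1 and PEO1 library and, over all lines, in 5 of 13 untreated libraries, 11 of 15 at 8 h and 12 of 14 at 24 h. PEO4 had the most, with 4.70, 12.7 and 3.22 rescaled TPM untreated, 0 in both libraries at 8 h and 0.987 at 24 h. PEO14 had 1.63, 0.536 and 1.15 untreated, 0.605, 0.572 and 0 at 8 h and 0 in the 1 library at 24 h. The microRNA gene it hosts, MIR675, was listed at 0 in all 42 retained libraries.

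**Figure D2:**
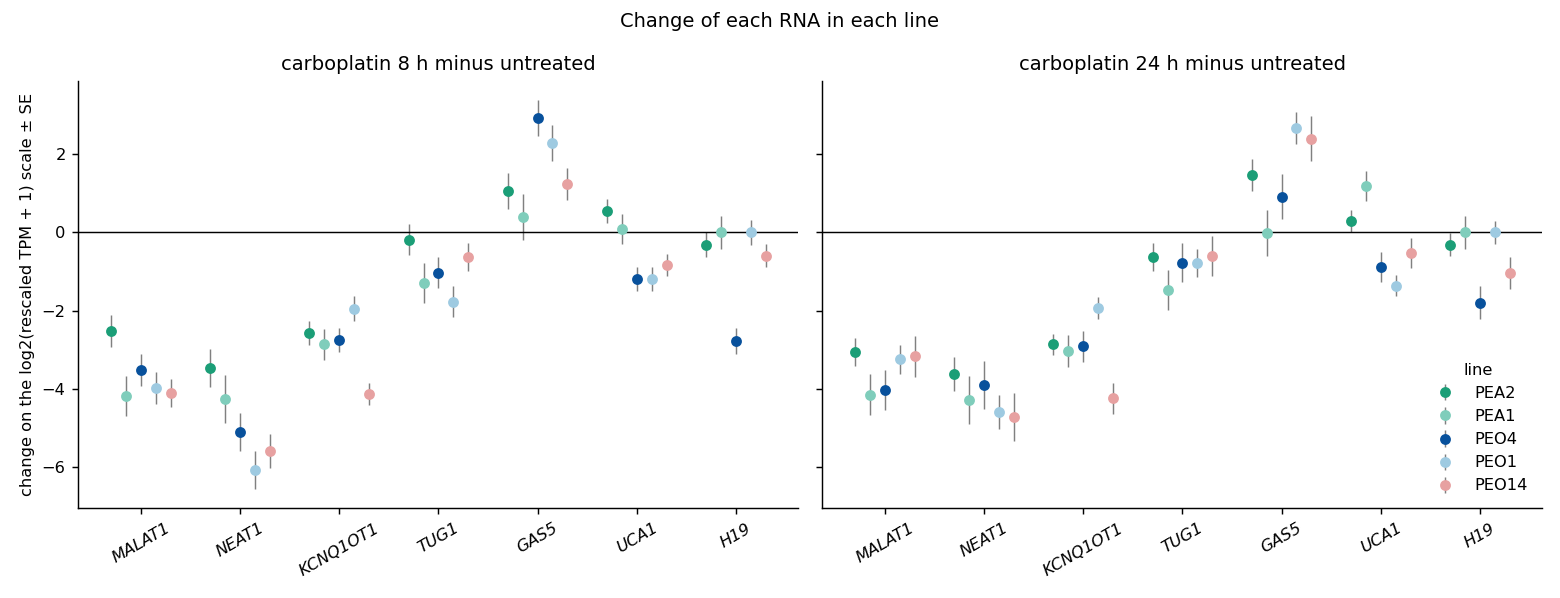
Change of each RNA in each line on the log2(rescaled TPM + 1) scale, with its SE as a bar, for 8 h (left) and 24 h (right) minus untreated; PEO23 is absent because it has no retained untreated library. MALAT1, NEAT1 and KCNQ1OT1 lie below 0 in all 5 lines, GAS5 at or above 0, and UCA1 and H19 differ between lines.

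Counted over the lines, MALAT1, NEAT1 and KCNQ1OT1 lay below every untreated library in 5 of 5 lines at 8 h and again at 24 h. Of the 18013 genes tested, 10.2% did so in 5 lines at 8 h and 10.1% at 24 h. TUG1 did so in 4 lines at 8 h and in 5 at 24 h, and UCA1 in PEO4, PEO1 and PEO14 at both times, and 27.5% of genes did so in at least 3 lines at 8 h and 28.6% at 24 h. H19 lay below in PEO4 at 8 h and in PEO4 and PEO14 at 24 h, as 57.8% and 60.2% of genes did in at least 1 line. GAS5 lay above every untreated library in 4 lines at either time, and 13.7% of genes lay above in at least 4 lines at 8 h and 13.6% at 24 h. UCA1 lay above in PEA2 at both times and in PEA1 at 24 h, as 41.2% and 46% of genes did in at least 1 line. The share beside TUG1, and at 24 h those beside H19 and the higher UCA1, ask for fewer lines than the RNA itself reached. The rule chose these RNAs on this contrast, so nothing is read from these counts. When all 54 libraries entered the fit, PEO23 could be compared, and its MALAT1, NEAT1 and KCNQ1OT1 changes at 8 h were -1.13 ± 0.93, -2.37 ± 1.05 and -3.39 ± 0.57, against untreated libraries of few genes.

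Ratios within a library do not depend on any rescaling. MALAT1 over GAS5 was 8.20 to 64.3 (median 15.6) in the 13 untreated libraries, 0.175 to 3.64 (median 0.452) in the 15 at 8 h and 0.229 to 6.28 (median 0.549) in the 14 at 24 h. NEAT1 over GAS5 was 0.512 to 7.30 untreated, 0.00133 to 0.0656 at 8 h and 0.00427 to 0.166 at 24 h. KCNQ1OT1 over GAS5 was 0.0387 to 0.317 untreated, 0.000347 to 0.0162 at 8 h and 0.000346 to 0.0341 at 24 h. None of these 3 ratios overlapped between treated and untreated retained libraries, although the highest KCNQ1OT1 ratio at 24 h, in PEO23, came close to the lowest untreated one, in PEO1. The RNAs of these ratios were chosen with their treated and untreated levels known, so this separation is a description and no test. TUG1 over GAS5 did overlap, at 0.0604 to 0.593 untreated, 0.00532 to 0.234 at 8 h and 0.00818 to 0.134 at 24 h. The 2 neighbouring nuclear RNAs did not keep 1 ratio: MALAT1 over NEAT1 was 7.36 to 21.2 (median 13.7) untreated, 13.6 to 210.3 (median 54.3) at 8 h and 9.34 to 64.7 (median 31.6) at 24 h. The ranges of this ratio overlapped.

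**Figure D3:**
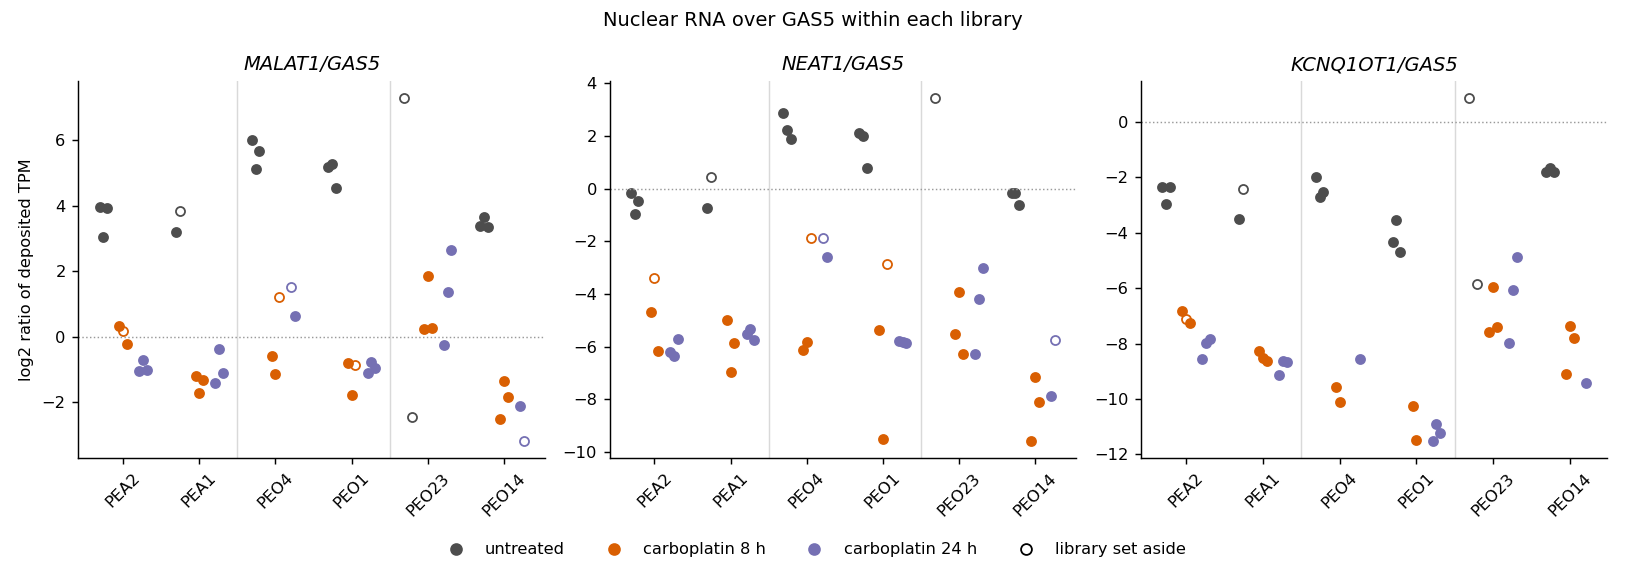
Deposited TPM of MALAT1, NEAT1 and KCNQ1OT1 over that of GAS5 in the same library, as log2 on the vertical axis, by line, with resistant lines left of their partners; filled points are retained libraries and open points those set aside, and libraries with 0 for either RNA are not drawn. Filled untreated points stand above all filled treated points in each panel. Of the open points the library labelled PEO23 untreated replicate 3 stands low.

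The next question was whether the levels moved between 8 h and 24 h. This comparison was not used to pick the RNAs, although it shares the 8 h libraries. Of 42 tests, 7 RNAs in 6 lines, 1 passed an adjusted p of 0.05 (limma with Benjamini-Hochberg adjustment over all genes), and over all genes the called share was 0% in PEA2, 0.0278% in PEA1, 14.1% in PEO4, 0.217% in PEO1, 0.394% in PEO23 and 2.54% in PEO14. GAS5 fell between 8 h and 24 h in PEO4, with 83.2 rescaled TPM in the 1 library at 24 h and 246 and 464 at 8 h, a log2 difference of -2.01 ± 0.61 (adjusted p = 0.0294). This call was lost without 8 h replicate 2 (log2 difference -1.55) and without rescaling (-0.88). It was also lost with only the compared groups in the fit (-2.01) and with all 54 libraries (-3.91, adjusted p = 0.290). NEAT1 was higher at 24 h than at 8 h in PEO1, by 1.49 ± 0.48, and in PEO4, by 1.20 ± 0.65, and neither passed (adjusted p = 0.21 and 0.219). Without PEO1 8 h replicate 1 the PEO1 difference was 2.14 (adjusted p = 0.0439).

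Resistant and sensitive lines were then compared at each time, in 8 comparisons and 53 tests. UCA1 at 8 h was left out of the tests because earlier results had named it there. Its untreated and 24 h tests compare the same lines, so they are not independent of that choice. The adjusted p was under 0.05 in 12 tests, and over all genes the called share was 11.6% (PEA2 against PEA1) and 28.4% (PEO4 against PEO1) untreated, then 16.2%, 9.89% and 14.8% at 8 h and 18.7%, 21.6% and 5.16% at 24 h for the PEA, PEO4 and PEO23 pairs. UCA1 passed in each of its 5 tests. Untreated it was higher in PEA2 than in PEA1, where the 1 retained library listed 0, and higher in PEO4 than in PEO1, by 2.46 ± 0.27 on the log2 scale (adjusted p = 3.2e-08). At 24 h UCA1 was at 99.5 ± 5.21 rescaled TPM in PEA2 and 1.30 ± 0.175 in PEA1 (SD, n = 3 libraries each), a log2 difference of 5.45 ± 0.27 (limma, adjusted p = 5.5e-16). The 24 h differences were 2.95 ± 0.39 for PEO4 against PEO1 and 2.05 ± 0.39 for PEO23 against PEO14 (adjusted p = 2.1e-06 and 0.00104), the PEO14 arm and the PEO4 arm having 1 library each. The untested 8 h differences were 6.82 ± 0.30, 2.46 ± 0.33 and 2.69 ± 0.27. UCA1 was thus higher in the resistant line of each pair at each time that could be compared. The other times repeat the 8 h pattern in the same lines and are no separate support for it. The 24 h call in the PEO23 pair was lost without rescaling (2.24, adjusted p = 0.155), with only the compared groups in the fit (adjusted p = 0.502) and with all 54 libraries, and both calls in the PEO4 pair were lost with all 54 libraries (2.24 untreated and 2.08 at 24 h, adjusted p = 0.355 and 0.158).

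Of the nuclear RNAs, MALAT1 and NEAT1 differed between the lines of some pairs at 8 h. Over all genes 9.89% to 16.2% were called at that time, so nothing particular to these RNAs is read from their calls. MALAT1 at 8 h was higher in PEA2 than in PEA1 by 1.48 ± 0.41 (limma, adjusted p = 0.0104) and higher in PEO23 than in PEO14 by 2.41 ± 0.37 (adjusted p = 1.9e-05). PEO4 and PEO1 differed by 0.50 ± 0.45, which did not pass. NEAT1 at 8 h was higher in PEO23 than in PEO14 by 1.85 ± 0.43 (adjusted p = 0.00324). At 24 h the MALAT1 differences of 0.91 ± 0.37 for PEA2 and 1.66 ± 0.52 for PEO23 were not called (adjusted p = 0.0859 and 0.0568). Untreated MALAT1 differed by -0.18 ± 0.52 in the PEA pair and by 0.04 ± 0.37 in the PEO4 pair. KCNQ1OT1 was higher in untreated PEO4 than in PEO1, by 1.02 ± 0.28 (adjusted p = 0.00663). The MALAT1 call in the PEA pair was lost without PEA2 8 h replicate 3 (log2 difference 1.32, adjusted p = 0.132), without rescaling (adjusted p = 0.0924) and with all 54 libraries (1.11, adjusted p = 0.93). In the PEO23 pair the MALAT1 and NEAT1 calls were lost with only the compared groups in the fit (adjusted p = 0.0771 and 0.15) and with all 54 libraries (adjusted p = 0.262 and 0.842), and the NEAT1 call also without rescaling (1.20, adjusted p = 0.126). The KCNQ1OT1 call was lost under 6 alternatives, among them upper quartile scaling (0.73, adjusted p = 0.0802).

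Of the other RNAs, TUG1 at 8 h was higher in PEA2 (24.3 and 32.5 rescaled TPM) than in PEA1 (8.49, 10.9 and 14.8), a log2 difference of 1.27 ± 0.40 (limma, adjusted p = 0.0273). That call was lost without any 1 of PEA2 8 h replicates 1 and 3 and PEA1 8 h replicates 1 and 2. The difference was then 1.06 to 1.47. It was also lost without rescaling (1.28, adjusted p = 0.209) and with upper quartile scaling (1.33, adjusted p = 0.0565). The same held with only the compared groups in the fit (adjusted p = 0.0546) and with all 54 libraries (0.62). GAS5 at 24 h was lower in PEO4, with 1 library, than in PEO1, by -2.32 ± 0.58 (adjusted p = 0.00466). H19 was higher in untreated PEO4 than in PEO1, where all 3 libraries listed 0 (adjusted p = 1.4e-08). With all 54 libraries in the fit, 5 of the differences between lines passed in place of 12.

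**Figure D4:**
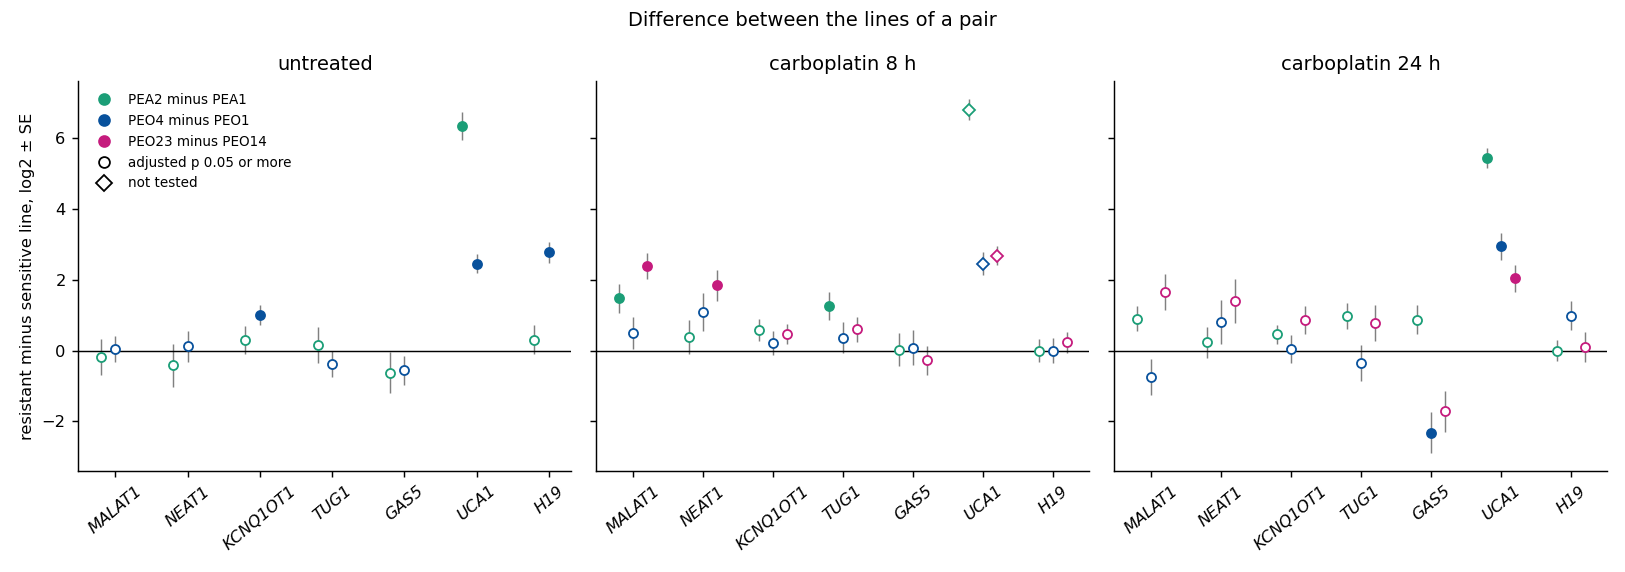
Difference between the resistant and the sensitive line of each pair for each RNA, log2 with its SE, untreated (left), at 8 h (middle) and at 24 h (right); filled points passed an adjusted p of 0.05, open circles did not and diamonds were not tested. UCA1 stands above 0 in each comparison, and the MALAT1 difference in the PEA pair is -0.18 untreated and 1.48 at 8 h. The PEO23 pair, with a MALAT1 difference of 2.41 at 8 h, has no retained untreated comparison.

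Whether the treatment change itself differed between the lines of a pair was tested as an interaction, in 49 tests. An adjusted p under 0.05 was reached in 1, the 8 h change of H19 in the PEO4 pair. Since H19 was listed at 0 throughout in PEO1, that value of -2.79 ± 0.47 is the treated minus untreated change of PEO4 itself, which the RNAs were chosen on, and it is no test of a difference between the lines. The called shares over all genes were 0.339%, 0.383% and 0.00555% in the PEA pair for the 8 h, the 24 h and the 24 h over 8 h change, 2.38%, 1.38% and 0.822% in the PEO4 pair and 0.139% in the PEO23 pair. The MALAT1 change at 8 h was 1.66 ± 0.66 higher in PEA2 than in PEA1 and 0.46 ± 0.58 higher in PEO4 than in PEO1, and neither passed (adjusted p = 0.777 and 0.785). With only the compared groups in the fit the PEA pair passed (adjusted p = 0.0128).

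Genes with the pattern most like each RNA were ranked by Pearson's r over 17 group means of log2 level, among 10761 genes, as a description, since the groups share lines and times. MALAT1 was nearest to LENG8 (0.953), NEAT1 (0.935) and KIAA1598 (0.931), and NEAT1 to LENG8 (0.969), the speckle protein gene SRRM2 (0.969) and ATN1 (0.968). KCNQ1OT1 was nearest to GPR22 (0.965), PRH2 (0.965) and CRLF3 (0.960), and TUG1 to ZNF318 (0.941), CD97 (0.937) and CNOT1 (0.913). GAS5 was nearest to RPL22L1 (0.961), a ribosomal protein paralogue, ODC1 (0.959), the first enzyme of polyamine synthesis, and RABGGTB (0.949). UCA1 was nearest to CYP4F11 (0.967), LSR (0.935) and ST14 (0.934), and H19 to MAPK15 (0.934), FAM101A (0.924) and DENND1A (0.915). CYP4F11 was listed at 0 in PEA1, where UCA1 did not pass 1.50.

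Genes linked to these RNAs by role were counted from lists that leave the 7 out, and were tested in each of the 5 lines. Single genes were named as the extremes of their list in this contrast, or after their values were seen. Their counts of lines are therefore a description. The share of all genes called in as many lines was not counted, and the shares given beside the lists are per test. Of 19 snoRNA host RNAs tested (of 21 listed) over 95 tests, 22 were higher and 6 lower at 8 h, 23.2% and 6.32%, and all genes gave 10.4% higher and 18.7% lower. At 24 h the counts were 19 higher and 5 lower, with 8.4% and 15.2% over all genes. SNHG5 was higher in 3 of 5 lines at 8 h (median log2 change 2.18) and in 4 at 24 h (2.82), SNHG8 in 2 lines at 8 h (1.73) and ZFAS1 in 4 (1.65). SNHG4 and SNHG17 went lower, at medians of -1.61 and -1.32 with 1 and 2 lines called at 8 h. The direction of the list turned without rescaling, with 10 higher and 16 lower at 8 h and list medians of -0.86 to 0.09 over the lines, against 0.09 to 1.74 rescaled, although ZFAS1 stayed higher in 4 lines and SNHG5 in 3. With all 54 libraries 2 were higher and 1 lower.

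Of 17 nuclear RNAs other than the 7, over 85 tests, 10 were higher and 11 lower at 8 h (11.8% and 12.9%, against 10.4% and 18.7% of all genes), and 1 higher and 12 lower at 24 h. Without rescaling 4 were higher and 22 lower at 8 h, where all genes gave 1974 higher and 26505 lower over 90065 tests. CCAT1, a nuclear RNA from near the MYC gene, was lower in 5 of 5 lines at both times, with a median log2 change of -2.21 at each. LINC-PINT had a median of -1.44 at 8 h and was called in 1 line, and FTX and RMRP were higher in 2 lines at 8 h (medians 1.31 and 0.98). In the broad class, 905 tested long noncoding RNA genes had medians of -0.58 to -0.24 across the 5 lines at 8 h, with 110 higher and 978 lower over 4525 tests, whereas 14863 protein-coding genes had medians of -0.21 to 0. The 117 with a longest transcript of 1 exon, like MALAT1 and NEAT1, had medians of -0.71 to -0.43 and the other 788 of -0.55 to -0.22. Of the 4525 tests 2.43% were higher and 21.6% lower, against 10.4% and 18.7% of all genes. Without rescaling the 8 h medians were -1.08 to -0.56 for the long noncoding RNA genes and -1.19 to -0.27 for protein-coding genes. These ranges overlapped, so the difference between the classes depends on that step. The counts were then 32 higher and 1451 lower over 4525 tests, and 1720 and 21710 over 74315 tests of protein-coding genes.

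Among 13 genes of the proteins of paraspeckles, over 65 tests at 8 h, 5 were higher and 14 lower, 7.69% and 21.5% against 10.4% and 18.7% of all genes. Without rescaling 1 was higher and 26 lower. TAF15, an RNA-binding protein, was lower in 5 of 5 lines at 8 h (median log2 change -2.29) and in 4 at 24 h (-1.95). SMARCA4, an ATPase of the SWI/SNF chromatin remodellers, was lower in 4 lines at 8 h (-1.15). NUDT21, a subunit of the cleavage factor that sets polyadenylation sites, was higher in 2 lines (1.05). HNRNPK, at 0.57 with 2 lines called, had a median of 0.04 and no line called without rescaling. NONO and SFPQ, the core proteins that coat NEAT1, had medians of 0.08 and 0.03.

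Among 18 nuclear speckle and SR protein genes over 90 tests at 8 h, 22 were higher and 18 lower, 24.4% and 20% against 10.4% and 18.7% of all genes. Without rescaling 3 were higher and 32 lower. SRRM2, SRRM1 and SON, large scaffold proteins of the speckles, were lower in 5 of 5 lines at both times, with medians at 8 h of -4.48, -2.43 and -2.08, and also without rescaling. The median level of SRRM2 was 172 rescaled TPM over the 13 untreated libraries, 8.85 at 8 h and 9.02 at 24 h. SRSF7 and SRSF3, small splicing factors, were higher in 4 lines at 8 h (1.43 and 1.27), and in 1 line each without rescaling. With all 54 libraries in the fit SRRM2 was lower in 4 lines at 8 h, SRRM1 in 1, and TAF15, SON and CCAT1 in none.

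Around the imprinted region that holds H19 and KCNQ1OT1, 1 of 50 tests was higher and 10 lower at 8 h, over 10 neighbours. These are 2% and 20%, against 10.4% and 18.7% of all genes, and the counts were 0 and 20 without rescaling and 0 and 4 with all 54 libraries. IGF2, the paternally expressed growth factor gene next to H19, was lower in 3 of 5 lines at both times (median log2 changes -2.74 and -2.93), and in PEO14 it averaged 1239.8 ± 435.4 rescaled TPM untreated, 179 ± 31.5 at 8 h and 156 in the 1 library at 24 h. In PEA2 and PEO1 IGF2 averaged 0.0726 and 0 rescaled TPM untreated, so it could hardly go lower there. KCNQ1 and SLC22A18AS were lower in 2 lines each at 8 h (-1.10 and -1.33). NAP1L4 was higher in 1 line (0.28) and had a median of -0.45 without rescaling, and TSSC4, at 0.16 with no line called, had one of -0.53 with 2 lines lower. Of the 3 IGF2BP genes, whose proteins bind H19 and other RNAs, IGF2BP2 was lower in 5 of 5 lines at 8 h (-1.56), IGF2BP1 in 1 (-0.29) and IGF2BP3 in none (-0.28). With all 54 libraries none of the 3 was called in any line at 8 h.

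**Figure D5:**
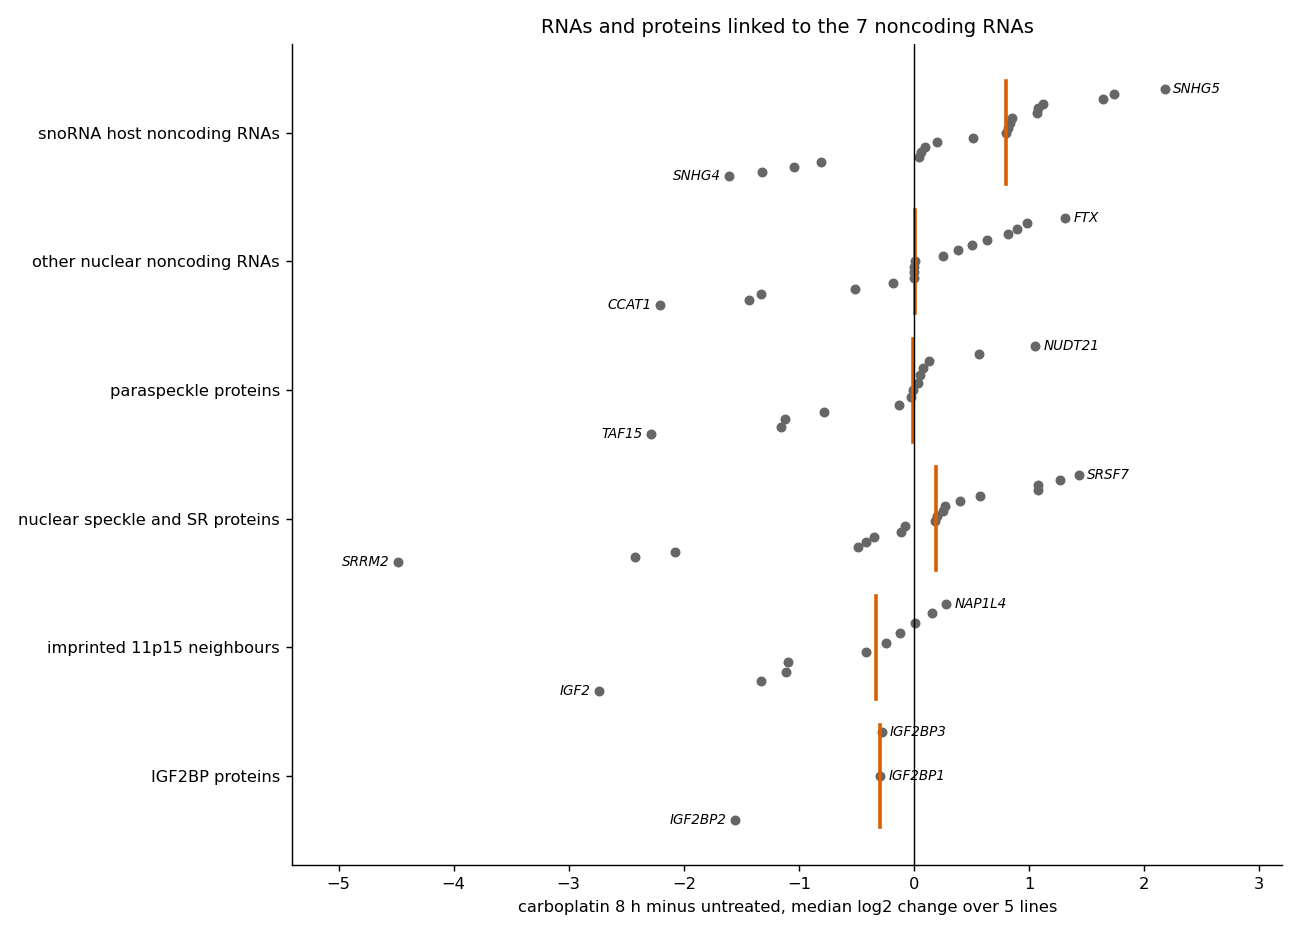
Median log2 change at 8 h over the 5 lines for each tested gene of 6 lists that leave out the 7 RNAs, one point per gene, with the highest and the lowest gene of each list named; orange bars are list medians. SRRM2 at -4.48 and TAF15 at -2.29 are the lowest of their lists and SNHG5 at 2.18 is the highest snoRNA host.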

How the data were processed

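Total RNA from 54 cultures (6 lines, 3 times, 3 replicates) was made into stranded libraries and sequenced as pairs of 75 bases, per the labels' protocols. The authors deposited 1 table of gene-level TPM values for 25435 genes, whose name points to RSEM. Per the submitters' processing notes, bcl2fastq 2.18 was used and the build was hg19. Aligner, annotation and strand setting: not given in the sources used here. The depth is unknown because TPM does not keep it, and an exact 0 is written as listed at 0. The dose is 80 µM per the labels, where the series text gives mM.

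The 12 libraries with fewer than 12000 genes above 0 were set aside. TPM of the 42 others was rescaled by the median ratio over 8287 genes above 0 in all of them and taken as log2(value + 1), and genes that reached a TPM of 1 in 3 or more libraries, 18013 in all, were tested. From these deposited TPM values, limma 3.58.1 in R 4.3.3 was fitted with a mean-variance trend to all 17 groups with a retained library and gave log2 differences with SE and p-values, adjusted by Benjamini-Hochberg over all genes within a comparison and called under 0.05. The fit was tested on simulated data. No p-value is given for the 7 RNAs between treated and untreated, where they were chosen. P-values measure the spread between replicates, made on separate days according to the series text.

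The 7 RNAs, the 6 lists of linked genes and the settings were chosen with earlier results of these data known. Named genes were the 7, the 2 with the highest and the 2 with the lowest change of each list, and the 3 genes most like each RNA among those averaging at least 5 rescaled TPM. SON, NONO, SFPQ, KCNQ1 and ZFAS1 were named after their values were seen. One paraspeckle protein gene is not reported here and was left out of its list. Per the labels, replicate numbers pair the 8 h and 24 h cultures within a line, which had equal passages in 18 of 18 cases, while untreated and treated cultures overlapped in 1 of 18. As a check, paired deviations from the group means correlated at -0.247 to 0.411 over 10 pairs. Alternatives were all 54 libraries, no rescaling, upper quartile scaling, no filter, a pseudocount of 0.1, replicate blocks, only the compared groups, and each replicate left out. The fit of all 54 libraries was rescaled over only the 392 genes above 0 in all of them. It includes those set aside, which listed 2678 to 11754 genes. Motifs were searched in GENCODE v29 transcripts, and gene classes come from the same annotation.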

Additional observations from a re-analysis of the deposited data

Results flagged for a closer look

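UCA1 lay above the untreated libraries in some lines and below them in others, with differences that carry no test. In PEA2 at 8 h it lay above every untreated library of that line, with a log2 change of 0.54 ± 0.30 (SE), and at 24 h likewise, with 0.30 ± 0.27. In PEA1 at 24 h it lay above the 1 retained untreated library, which listed 0, with 1.20 ± 0.39. In PEO4, PEO1 and PEO14 every retained treated library lay below every untreated one at both times. The higher side did not hold throughout: without rescaling PEA2 at 24 h was -0.15 and its 8 h values overlapped the untreated ones, and with all 54 libraries PEA1 was -2.31 at 8 h and -1.22 at 24 h. The difference between these lines was not tested across pairs.

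For H19 the 8 h changes of PEO4 and PEO1 differed by -2.79 ± 0.47 on the log2 scale. PEO4 had 4.70, 12.7 and 3.22 rescaled TPM untreated and 0 at 8 h, and PEO1 was listed at 0 in every library and could not go lower. The value is therefore the change of PEO4 alone, in the comparison the RNAs were chosen on, and a difference in response between the lines was not tested by it.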

How the results depend on the processing

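Over 3482 recomputed values, 3267 kept their direction and side of the threshold or stayed within the spread, 125 moved, 45 lost and 39 gained a call, and 6 reversed. With all 54 libraries the medians over lines were -4.55 (NEAT1, 8 h), 1.80 (GAS5, 8 h) and -1.12 (UCA1, 24 h), 5 differences between lines passed, and signs reversed for UCA1 in PEA1 (-2.31 at 8 h, -1.22 at 24 h) and for GAS5 at 24 h in PEA1 (2.48), PEO4 (-1.74) and PEO14 (-0.20). Without rescaling the medians at 8 h and 24 h were -4.71 and -4.55 (MALAT1), -6.19 and -4.84 (NEAT1), -3.34 and -3.44 (KCNQ1OT1), -1.73 and -1.32 (TUG1) and -1.42 and -1.40 (UCA1), GAS5 at 8 h was 0.64, 2 interactions passed, both of H19 in the PEO4 pair, and UCA1 in PEA2 at 24 h reversed to -0.15. That choice moved the median of all genes to between -1.14 and -0.31 at 8 h, from between -0.23 and 0, and the PEO4 split at 8 h to 1141 higher and 8560 lower, from 3891 and 5761. A pseudocount of 0.1 gave -4.15 and -4.70 (KCNQ1OT1) and -1.47 at both times (H19), with 2 calls of 24 h against 8 h and 3 interactions. With only the compared groups 2 interactions passed, of MALAT1 in the PEA pair (8 h) and H19 in the PEO4 pair (24 h over 8 h). With a replicate block for line and replicate number, 2 differences of 24 h against 8 h passed, H19 in PEO4 being added (adjusted p = 0.0499), and a block for the replicate number over all groups changed no count by over 1.5 times. Leaving out the same replicate of every group gave medians of -4.21 to -3.35 (MALAT1, 8 h), 1.14 to 2.29 (GAS5, 8 h), 1.32 to 2.07 (GAS5, 24 h) and -0.84 to -0.071 (UCA1, 24 h), and 0 to 1 calls of 24 h against 8 h, 6 to 11 between lines and 0 to 1 interactions. The cause was not tested.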
